A study of Mus musculus with 2 samples.

Results

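Immediate early and activity-regulated genes were examined in the hippocampus of mice after 5/6Nx or a sham operation. They are 37 named genes out of 34797 gene names on the array, taken as every non-control probe that the scanner files name after 1 of them, and all 37 were among the 25944 genes measured on both arrays. They were sorted by known role into 21 rapid transcription factors, 8 effector genes, 4 MAP kinase phosphatases and 4 other early response regulators. 5/6Nx usually stands for 5/6 nephrectomy, in which most kidney tissue is removed to model chronic kidney disease. Both groups were ICR mice, an outbred strain, sampled 8 weeks after 5/6Nx or after the sham operation, with no further allele or agent named in the labels. Each group was 1 array of total hippocampal RNA labelled with Cy3, so there are no replicates, no test was possible and every difference describes these 2 arrays. The sources used here give neither the number, age or sex of the animals behind each array nor the hour of sampling and the handling before it.

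Immediate early genes are transcribed within minutes of a stimulus without new protein synthesis. In neurons, calcium entry and growth factors act through CREB, SRF with its partners and MEF2 at their promoters, and their RNA decays quickly. The first wave holds transcription factors that act on later genes, effectors that work at the synapse, and phosphatases that switch off the MAP kinases that carried the signal. In the hippocampus they are used as markers of recently active neurons, and they also respond to stress, injury and hormones.

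Promoters are shown first because these genes are commonly described through shared promoter elements. RefSeq promoters (GRCm38.p6) were at hand for 29 of the 37 genes and were searched on both strands, from 250 bases before to 50 after the start. The cAMP response element (CRE) TGACGTCA was in 3 of the 29 (10.3%), against 2.03% of 27025 genes with a promoter in the table, and its shorter form TGACG, which the full element contains, was in 22 (75.9%), against 23% of genes. The Egr element GCGNGGGCG was in 11 (37.9%), against 6.27% of genes, the CArG box bound by SRF in 3 (10.3%), against 1.81%, and the MEF2 box in 4 (13.8%), against 2.16%. No member held the AP-1 element TGANTCA in this window, which 8.97% of genes did. These promoters were also richer in G and C than the rest (median 64.7%, against 52.8%) and held a median of 25 CpG, against 7, and the counts above were not matched for that. The 3 genes with the full CRE were Maff, Dusp1 and Btg2. Their 250 bases before the start are printed with every matched motif in capitals, followed by the orphan nuclear receptors Nr4a1 and Nr4a2, each with 4 copies of the short element, or of CGTCA, which is the same element on the other strand. Their relative Nr4a3 also had 4 copies and is not printed.
Maff, chr15:79347270-79347519, plus strand: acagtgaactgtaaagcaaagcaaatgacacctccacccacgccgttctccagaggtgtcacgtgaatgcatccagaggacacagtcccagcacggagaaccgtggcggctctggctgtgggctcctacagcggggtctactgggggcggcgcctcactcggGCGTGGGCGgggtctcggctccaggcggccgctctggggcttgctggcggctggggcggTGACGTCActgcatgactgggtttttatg
Dusp1, chr17:26508473-26508722, minus strand: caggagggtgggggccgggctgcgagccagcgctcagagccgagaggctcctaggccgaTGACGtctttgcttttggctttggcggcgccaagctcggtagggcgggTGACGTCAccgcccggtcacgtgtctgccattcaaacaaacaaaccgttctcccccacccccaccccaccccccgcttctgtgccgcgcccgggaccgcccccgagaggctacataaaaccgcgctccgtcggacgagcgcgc
Btg2, chr1:134079156-134079405, minus strand: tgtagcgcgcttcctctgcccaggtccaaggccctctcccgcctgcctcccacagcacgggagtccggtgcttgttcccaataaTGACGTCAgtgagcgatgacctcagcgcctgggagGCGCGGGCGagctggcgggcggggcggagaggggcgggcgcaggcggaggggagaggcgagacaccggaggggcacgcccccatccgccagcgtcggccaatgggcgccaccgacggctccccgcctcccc
Nr4a1, chr15:101266596-101266845, plus strand: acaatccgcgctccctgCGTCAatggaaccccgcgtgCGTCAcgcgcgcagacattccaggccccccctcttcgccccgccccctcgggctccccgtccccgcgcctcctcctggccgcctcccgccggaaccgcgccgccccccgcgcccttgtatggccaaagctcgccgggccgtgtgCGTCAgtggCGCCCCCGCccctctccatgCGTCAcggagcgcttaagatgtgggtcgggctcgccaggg
Nr4a2, chr2:57124004-57124253, minus strand: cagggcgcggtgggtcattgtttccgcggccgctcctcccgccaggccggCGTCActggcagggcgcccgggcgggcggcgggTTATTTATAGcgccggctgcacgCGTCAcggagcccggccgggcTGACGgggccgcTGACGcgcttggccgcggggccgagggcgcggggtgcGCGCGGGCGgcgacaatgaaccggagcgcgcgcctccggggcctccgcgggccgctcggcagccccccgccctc
The CRE starts 29 bases before the start in this promoter of Maff, 1 of 3 in the table, 143 before it in Dusp1 and 166 before it in Btg2. Maff, Btg2, Nr4a1 and Nr4a2 also have an Egr element in capitals, and Nr4a2 has a MEF2 box that starts 167 bases before its start. The genes printed here did not share a direction: Maff had the largest excess in the 5/6Nx array of all members, Dusp1 and Btg2 differed by less than 1.5-fold, and Nr4a2 was lower. A match is a run of letters and does not show that a factor was bound.

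Levels are given as relative intensity, the background-subtracted spot signal divided by the 75th percentile of its own array, and differences as the log2 of 5/6Nx over sham. A level can be set against the other array but not against another gene, since probes differ in brightness. Genes at least 2-fold apart are called higher or lower in 5/6Nx, by size and without a test. Over all 25944 genes the median difference was 0.05 and the SD 0.60. For scale, the SD of the differences between probes of 1 gene had a median of 0.20 log2 over 7985 genes. A separate measure, the SD of the log2 signal between spots of 1 probe on 1 array, had a median of 0.06.

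Most of the 37 genes were close to equal on both arrays. Maff was higher in 5/6Nx, and Fosl2, Nr4a2 and Ptgs2 were lower. These 4 are 10.8% of the members, and 8.19% of all measured genes were called in either direction. By direction, 1 of 37 members was higher, against 4.91% of genes, and 3 of 37 were lower, against 3.28%. At a smaller size of 1.5-fold, 4 members were higher and 4 lower (21.6% in all), against 22.6% of genes, 13.7% higher and 8.92% lower. At 3-fold Maff was higher and 0 members were lower, against 1.5% of genes higher and 0.94% lower (2.44% in all). The share called in either direction was near that of all genes at each size, at 3-fold through Maff alone. The split by direction differed in the main setting. At 2-fold, 3 of the 4 members called were lower, while 59.9% of all genes called were higher, and these member counts are small. The share of all genes depended on the scaling, at 49.3% with quantile normalization and 29.6% with spike-in scaling. The members stayed at 1 higher and 3 lower under both, so with spike-in scaling most calls were lower in members and in all genes alike. The median difference of the members was -0.11, with 16 (43.2%) above 0 and 21 (56.8%) below. Over all genes 55.4% were above 0 and 44.6% below.

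**Figure D1:**
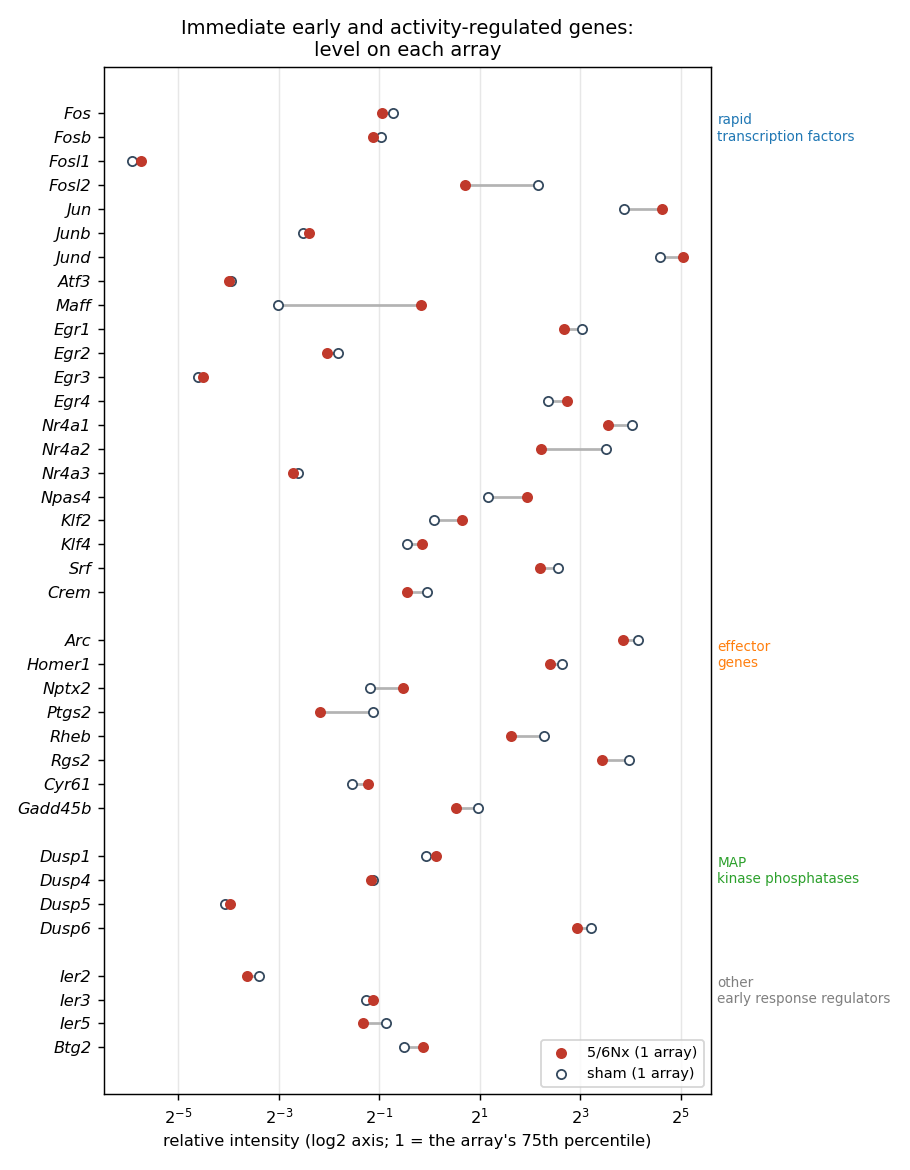
Relative intensity (log axis, 1 is the array's 75th percentile) of the 37 members in the 5/6Nx array and the sham array, grouped by role. The pair of points of Maff is the widest apart, at 0.890 in 5/6Nx and 0.124 in sham, and for most genes the 2 points lie close together.

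Maff encodes a small Maf protein, a leucine zipper factor without an activation domain of its own that pairs with CNC family factors. Its relative intensity was 0.890 in 5/6Nx and 0.124 in sham, a difference of 2.84 (7.16-fold). This lay above 99.87% of the measured genes. Only 1 probe measures it, at position 1735 of the transcript (chromosome 15, 79189442 to 79189501, mm9), so no other probe checks it. In the 12 alternatives that measured it, its difference ran between 2.43 and 2.84. With 1 probe, the mean over probes, either probe end and no filter on dim probes return the main value, so this range does not measure stability. The stricter filter on dim probes left Maff out.

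Nr4a2 (Nurr1), an orphan nuclear receptor induced by activity and needed for dopamine neurons, had a relative intensity of 4.65 in 5/6Nx and 11.4 in sham. This is a difference of -1.29 (2.44-fold), and 1.77% of genes had a lower one. Its other probe, 1062 bases nearer the 3′ end, read 1.07 in 5/6Nx and 2.82 in sham, a difference of -1.39. The probes lie on chromosome 2 at 56960699 to 56960758 and 56959637 to 56959696 (mm9), and both put the gene lower in 5/6Nx. Nr4a1 (Nur77) stood at 11.8 in 5/6Nx and 16.4 in sham, and Nr4a3 (NOR1) at 0.152 in 5/6Nx and 0.163 in sham. The differences of these relatives were -0.48 and -0.11, under the 2-fold size. The family thus had 3 of 3 members below 0, in the main values and in every alternative that measured them, but Nr4a2 alone was called.

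Fosl2 (Fra-2), a Fos family member that pairs with Jun proteins in the AP-1 factor, gave opposite answers from its 2 probes. The brighter probe, at position 5726 of the transcript (chromosome 5, 32460076 to 32460135, mm9), read 1.63 in 5/6Nx and 4.46 in sham. Its difference was -1.45, a 2.73-fold lower level in 5/6Nx. The dimmer one, at position 738 (chromosome 5, 32455088 to 32455147, mm9), read 0.0784 in 5/6Nx and 0.0386 in sham, a difference of 1.02. The call on Fosl2 therefore holds for the probe near the 3′ end alone, and the mean over both probes was -0.21.

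The other Fos family genes differed little. Fos itself, the most used marker of neuronal activity, is printed 10 times on each array. Its spots read 0.484 to 0.545 with a median of 0.526 in 5/6Nx, and 0.567 to 0.634 with a median of 0.606 in sham. The 2 sets of spots did not overlap, yet the difference was -0.21, well under the 2-fold size, and spots of 1 array share 1 RNA. Fosb had a relative intensity of 0.459 in 5/6Nx and 0.511 in sham (-0.15). Fosl1 was dim, at 0.0188 in 5/6Nx and 0.0164 in sham, and its difference of 0.19 fell below 0 under quantile normalization, removal of the signal trend, spike-in scaling and the authors' table. None of the 3 reached 1.5-fold.

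**Figure D2:**
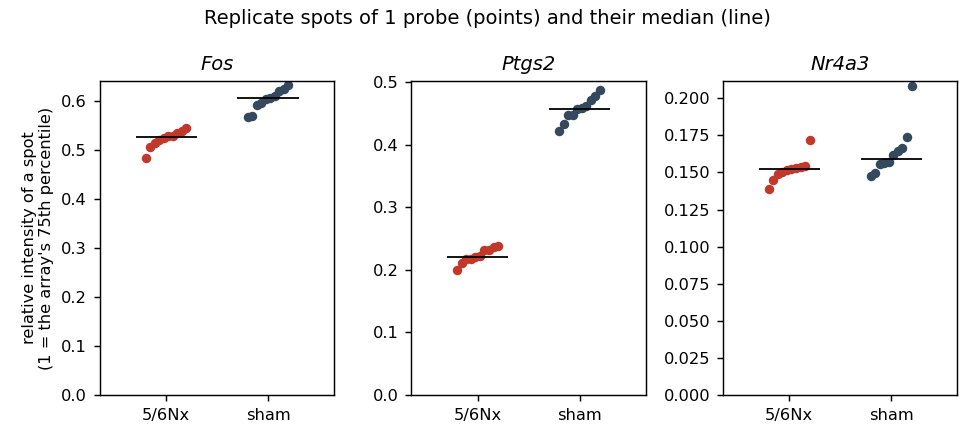
Relative intensity of the 10 spots on each array for Fos, Ptgs2 and Nr4a3, the 5/6Nx array to the left of the sham array. The spots of Fos and Ptgs2 do not overlap between arrays and those of Nr4a3 do, and the scatter is that of printing and scanning alone.

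The Jun family was above 0. Jun, the main AP-1 partner of Fos, had a relative intensity of 24.9 in 5/6Nx and 14.6 in sham, a difference of 0.76. Jund, which is present in resting cells, had 33.1 in 5/6Nx and 23.9 in sham (0.47). Junb had 0.190 in 5/6Nx and 0.175 in sham, and its difference of 0.12 turned negative in the authors' table, with the signal trend removed, under quantile normalization and when scaled to the median or to spike-ins. No Jun gene was called, and Jun was above 91.4% of the genes. Atf3, a stress-induced repressor of the same leucine zipper class, stood at 0.0629 in 5/6Nx and 0.0649 in sham (-0.04), a difference whose sign changed with the background correction.

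Among the Egr zinc finger factors, Egr1 (Zif268), which is linked to the late phase of synaptic potentiation, had 6.42 in 5/6Nx and 8.25 in sham, a difference of -0.36. Egr2, known for its role in myelinating cells, had 0.243 in 5/6Nx and 0.284 in sham (-0.22). Egr3 was at 0.0441 in 5/6Nx and 0.0412 in sham (0.10, negative under 5 alternatives, all of them scalings or normalizations). Egr4 was at 6.63 in 5/6Nx and 5.13 in sham (0.37). Their median of -0.06 was within the spread between probes, and the family had no shared direction.

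Npas4, a neuron-restricted factor that responds to calcium entry and shapes inhibitory synapses, had 3.82 in 5/6Nx and 2.25 in sham, a difference of 0.76. It lay above 91.4% of the genes and under the 2-fold size. Klf2, a Krüppel-like factor of endothelium, had 1.56 in 5/6Nx and 1.06 in sham (0.56), and Klf4 had 0.899 in 5/6Nx and 0.729 in sham (0.30). Endothelial markers moved little, with a median of 0.09 and 0 of 10 called. Srf, which binds CArG boxes and drives early genes, had 4.60 in 5/6Nx and 5.91 in sham at its brighter probe (-0.36) but 1.91 in 5/6Nx and 1.62 in sham at the probe nearer the 5′ end (0.24). Crem, whose short products repress CRE genes, had 0.734 in 5/6Nx and 0.969 in sham (-0.40), with a second measured probe at -0.83.

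Of the 8 effector genes, 6 (75%) were below 0, against 44.6% of all genes, and their median was -0.37. Against 8.19% of all genes called in either direction, 1 of the 8 was called (12.5%). That was Ptgs2 (COX-2), the inducible prostaglandin synthase of excitatory neurons, at chromosome 1, 151954744 to 151954803 (mm9). Its 10 spots ran between 0.200 and 0.238 with a median of 0.221 in 5/6Nx, and between 0.421 and 0.487 with a median of 0.457 in sham, without overlap. The difference was -1.04 (2.05-fold), and 2.96% of genes had a lower one. As it sits at the 2-fold size, it fell under it with normexp background correction (-0.88) and with no background subtraction (-0.85).

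At their brightest probes the other 7 effectors were under 2-fold. Arc, which drives removal of AMPA receptors, had 14.5 in 5/6Nx and 17.7 in sham (-0.29). Rgs2, a brake on Gq signalling, had 10.9 in 5/6Nx and 15.6 in sham at its brighter probe (-0.52), and 0.141 in 5/6Nx and 0.304 in sham at the other (-1.11). Rheb, the GTPase that activates mTORC1, had 3.08 in 5/6Nx and 4.85 in sham (-0.66). Its probe nearest the 3′ end, the dimmest of its 3, gave 0.0419 in 5/6Nx and 0.0328 in sham (0.35). Gadd45b, linked to activity-dependent DNA demethylation, had 1.44 in 5/6Nx and 1.97 in sham (-0.45). In the other direction, Nptx2 (Narp), a secreted pentraxin that clusters AMPA receptors, had 0.695 in 5/6Nx and 0.438 in sham (0.67). Cyr61, a matrix protein that signals through integrins, had 0.427 in 5/6Nx and 0.345 in sham (0.31).

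Homer1, a scaffold of glutamate receptors whose short form Homer1a is induced by activity, had 5 probes on chromosome 13, which the scanner files assign to a short and a long transcript. The 3 assigned to the short transcript had differences of -0.19, -0.23 and -0.38, and the brightest of them read 1.88 in 5/6Nx and 2.15 in sham. That probe starts at 94116595 (mm9), on an exon upstream of the next probe at 94125924, so it need not measure the short form alone. The 2 assigned to the long transcript had -0.09, at 1.37 in 5/6Nx and 1.46 in sham, and -0.25, at 5.24 in 5/6Nx and 6.21 in sham. All 5 probes were below 0 and none reached 1.5-fold, and the isoforms were not compared.

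The 4 MAP kinase phosphatases had the narrowest range of the 4 classes, with a median of 0.03 and none past 1.5-fold. Dusp1 (MKP-1), which acts on p38 and JNK and carries the CRE printed above, had 1.09 in 5/6Nx and 0.948 in sham (0.20, and -0.09 with spike-in scaling). Dusp4 (MKP-2) had 0.448 in 5/6Nx and 0.460 in sham (-0.04, and 0.03 with either other background treatment). Dusp5, the nuclear ERK phosphatase, had 0.0636 in 5/6Nx and 0.0598 in sham (0.09, negative under 5 alternatives). Dusp6 (MKP-3), its cytoplasmic counterpart, had 7.65 in 5/6Nx and 9.29 in sham (-0.28). Among 8 other phosphatases of this group the median was -0.05 and none was called. They ran between -0.86 for Dusp10 and 0.52 for Dusp2, with Dusp16 at -0.22 and Dusp9 at 0.35.

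The 4 other early regulators were all under 1.5-fold at their brightest probes. Ier5, a regulator of heat shock factor 1, had 0.400 in 5/6Nx and 0.552 in sham (-0.46). Its second probe, 2235 bases nearer the 3′ end (chromosome 1, 156943530 to 156943589, mm9), gave 0.133 in 5/6Nx and 0.621 in sham, a difference of -2.22 (4.67-fold). Ier5 is therefore lower by under 1.5-fold at 1 probe and by over 4-fold at the other. Ier2 had 0.0809 in 5/6Nx and 0.0947 in sham (-0.23). Ier3, an inhibitor of apoptosis, had 0.460 in 5/6Nx and 0.415 in sham (0.15, and below 0 with spike-in scaling and scaling to the median). Btg2, an antiproliferative gene, had 0.919 in 5/6Nx and 0.701 in sham (0.39).

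**Figure D3:**
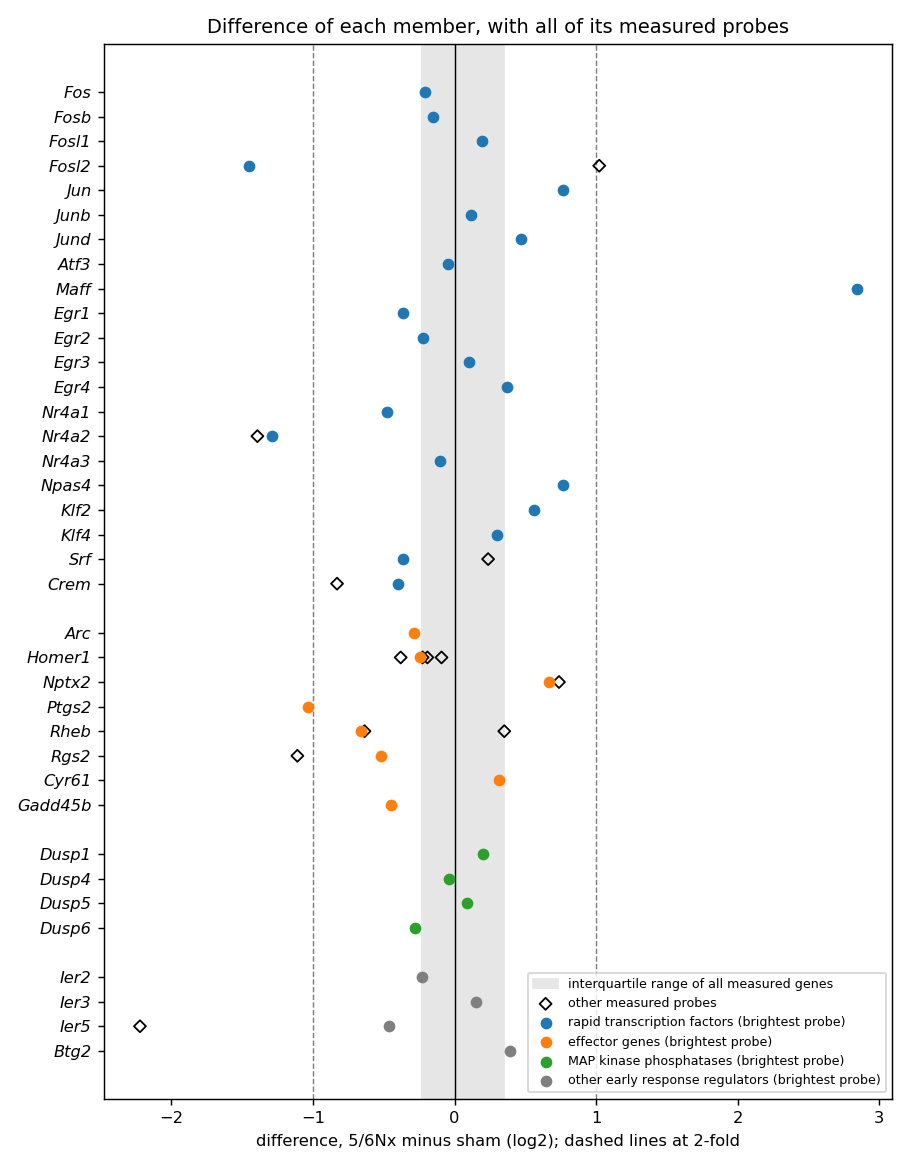
Difference of each measured probe of the 37 members (log2, 5/6Nx minus sham), grouped by role, with the brightest probe marked apart from the others and dashed lines at 2-fold. Maff stands alone at 2.84, Fosl2, Nr4a2 and Ptgs2 lie past the left line, and the other probes of Ier5, Rgs2 and Fosl2 lie apart from the brightest ones.

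Between the classes, the effector median of -0.37 and the transcription factor median of -0.04 differed by -0.32. The ranges overlapped, since 16 of 21 transcription factors lay within the range of the effectors. The gap was -0.10 under quantile normalization and in the authors' table, -0.11 with the signal trend removed, and -0.52 with no background subtraction. The effector median was below that of the transcription factors in every alternative, but several of these could not change the gap. Scaling to the median or to spike-ins shifts all genes alike, and no filter on dim probes left the members unchanged. The gap was -0.32 in each of these and with outlier spots kept, and the authors' table nearly repeats quantile normalization.

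**Figure D4:**
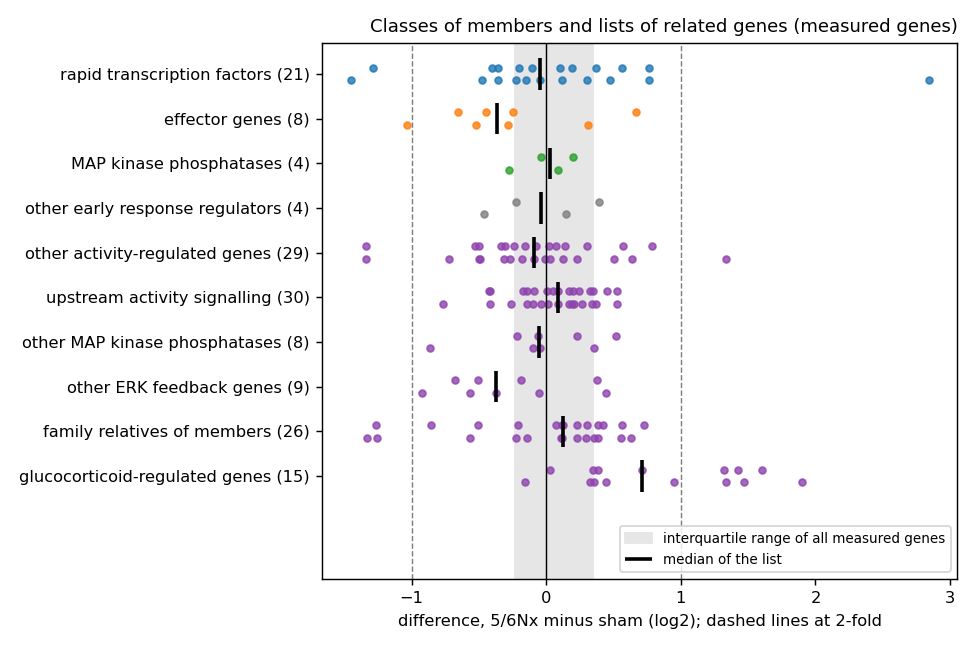
Difference of every measured gene (points, log2, 5/6Nx minus sham) in the 4 classes of members and 6 lists of related genes, with list medians as black bars and the interquartile range of all measured genes in grey. The effector and ERK feedback medians (-0.37 each) lie left of the grey band, the glucocorticoid-regulated median (0.71) lies right of it, and the other medians lie within it.

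Where a gene had several probes on 1 transcript, the 3′ probe mostly had the lower difference. This pattern was looked at after the values of Ier5 and Fosl2 were seen. In 10 transcripts of 9 members, the last probe minus the first had a median of -0.31, 9 of 10 were below 0 and 3 (30%) were at least 2-fold apart. Over all 3975 such transcripts on the array the median was -0.05, 56.4% were below 0 and 5.66% were 2-fold apart. The members include Fosl2 and Ier5, and without them 7 of 8 were below 0 (median -0.17) and 1 was 2-fold apart, which was Rheb, in the other direction (1.01). For probes at least 1000 bases apart, 6 of 6 members were below 0 (median -0.59), against 62.9% of 2033 transcripts (median -0.12), and without Fosl2 and Ier5 4 of 4 were (median -0.37), with 0 of them 2-fold apart.

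**Figure D5:**
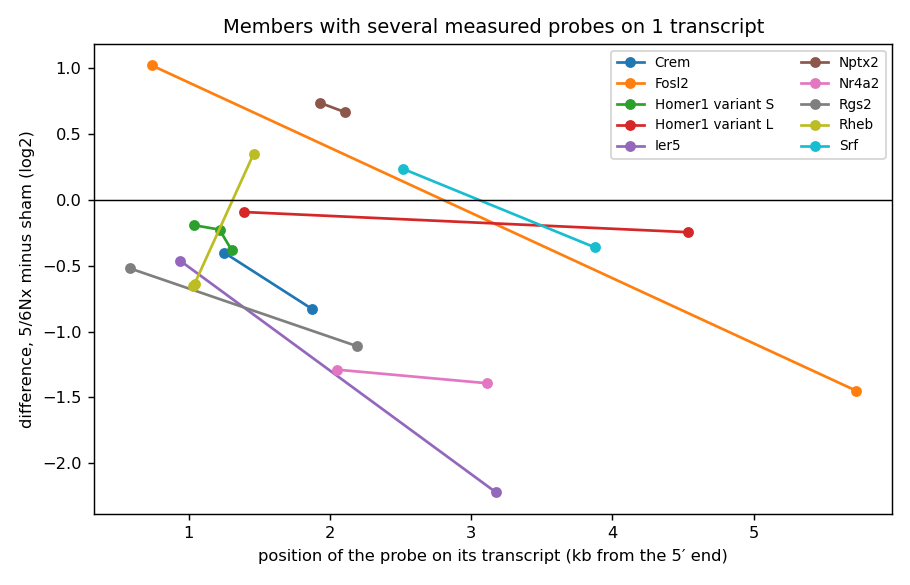
Difference (log2, 5/6Nx minus sham) of each probe against its position on the transcript (kb from the 5′ end), with lines that join probes of 1 transcript for the members with several (Homer1 variants S and L are the short and long transcripts to which its probes are assigned). Lines of Fosl2 and Ier5 drop steeply toward the 3′ end, with 3′ minus 5′ values of -2.47 and -1.76, and that of Rheb climbs.

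The lists of related genes outside the 37 did not all look alike, and the other activity-regulated genes came close to the members. Of 30 other activity-regulated genes 29 were measured, with a median of -0.09, 1 higher and 2 lower. These are 10.3% called, against 8.19% of all measured genes. Per1, a clock gene that also answers to CREB and to glucocorticoids, had 14.9 in 5/6Nx and 5.90 in sham (1.33). Pcsk1, a prohormone convertase, had 0.260 in 5/6Nx and 0.659 in sham (-1.34). Inhba, the activin A subunit, had 0.444 in 5/6Nx and 1.12 in sham (-1.34). None of 30 upstream signalling genes was called (median 0.09), from Creb1 at -0.77 and Rps6ka5 at -0.42 to Mkl1 at 0.52 and Crtc2 at 0.53. Of 9 genes of ERK feedback none was called, and 7 (77.8%) were below 0 (median -0.37). Among them Spry4 (-0.93) and Etv4 (-0.68) were lowest and Spry1 (0.37) and Spred2 (0.44) highest.

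Of the 26 measured family relatives of members, 3 (11.5%) were lower, against 3.28% of all genes. None was higher, against 4.91%, and their median was 0.12. Klf5 had 0.489 in 5/6Nx and 1.18 in sham (-1.27). Rgs4, a regulator of G protein signalling in neurons, had 4.64 in 5/6Nx and 11.1 in sham (-1.26). Nov, a relative of Cyr61 that is also a CA1 marker, had 0.986 in 5/6Nx and 2.49 in sham (-1.34). Glucocorticoid-regulated genes differed from the members, with a median of 0.71, none lower and 6 of 15 (40%) higher, against 4.91% of all genes. These were Cdkn1a (1.90), Sgk1 (1.60), Plin4 (1.47), Pdk4 (1.43), Per1 (1.33) and Ddit4 (1.32). Of the 15, 14 were above 0 and 1 was below (-0.16). The list was chosen with earlier results of these data known, so its share called is not an independent result. Dusp1, a member that glucocorticoids are known to induce, had 0.20.

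Markers of several cell types also differed between the 2 arrays, and those of others differed little. Over all measured genes 4.91% were called higher and 3.28% lower. The marker lists were chosen with earlier results of these data known, so their counts are not independent results. A sum follows the brightest probes of its list, so the median difference is given as well. All 10 choroid plexus markers were above 0, and 9 were called higher, with a median of 3.78, from Aqp1 at 0.55 to Ttr at 6.66. Their summed relative intensity was 167 in 5/6Nx and 3.71 in sham, of which Ttr alone gave 150 in 5/6Nx and 1.49 in sham. All 10 leptomeningeal markers were below 0, and 9 were called lower, with a median of -2.27 and a sum of 12.6 in 5/6Nx and 50.5 in sham. Of the blood markers 8 of 10 were measured, all below 0 and 7 called lower. Their median was -3.80 and their sum 16.8 in 5/6Nx and 208 in sham. Interneuron markers were below 0 in 9 of 10 (median -0.60, sum 209 in 5/6Nx and 317 in sham, 1 called lower). CA1 markers were so in 6 of 8 (median -0.38, sum 46.0 in 5/6Nx and 70.9 in sham, 3 called lower). Dentate granule markers were above 0 in 9 of 10 (median 0.43, sum 34.1 in 5/6Nx and 26.6 in sham, 1 called higher). CA2 and CA3 markers were so in 6 of 7 (median 0.42, sum 76.3 in 5/6Nx and 75.9 in sham, 1 called higher). Of the pan-neuronal markers 7 of 8 were measured, with 3 above 0, 4 below and 2 called lower, Tubb3 (-1.48) and Elavl4 (-1.03, named after its value was seen). Their median was -0.10, although their sum was higher in 5/6Nx (321 in 5/6Nx and 302 in sham). Oligodendrocyte markers were below 0 in 7 of 8 (median -0.37, sum 129 in 5/6Nx and 139 in sham), with 2 called lower and 1 higher, from Opalin at -2.30 to Mobp at 1.44. Microglial markers had 5 of 8 below 0 and 2 called lower. Their median was -0.23, although their sum was higher in 5/6Nx (125 in 5/6Nx and 115 in sham). Astrocyte (median -0.04, sum 322 in 5/6Nx and 313 in sham) and mural cell markers (median 0.05, sum 7.71 in 5/6Nx and 8.28 in sham) each had 4 of 8 below 0 and 1 called higher. The part of all these cell types in the values of Maff, Nr4a2, Fosl2, Ptgs2 and the neuronal effectors was not tested. In tissue RNA, fewer cells of a type and less RNA per cell cannot be told apart.

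On each array 59305 non-control spots were read, with 72.5% well above background in 5/6Nx and 72.7% in sham and none saturated. The 75th percentile of the intensity was 1263 in 5/6Nx and 1452 in sham. The 37 members rest on 52 probes and 79 spots, of which 50 probes were well above background on both arrays. With 28 members on 1 probe each, most of these values have no second probe behind them, and precision is limited by there being 1 array for each group.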

How the data were processed

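Hippocampal total RNA of ICR mice, with 1 array for 5/6Nx and 1 for sham, was amplified, labelled with Cy3 dye and read on 1-colour Agilent arrays of 60-base probes, per the labels' protocols. The deposited scanner files hold linear spot intensity. The authors used Feature Extraction 10.7.1.1, per the file headers (9.5.1.1 per the submitters' processing notes), with background subtracted within each array and no normalization between arrays. The authors' deposited table holds 1 normalized intensity per probe, with equal sorted values in both columns within 0.0323% and a median of 124 each, and it was used as an alternative. On the log2 scale, its correlation with the scanner values was 1.00 for the matching array and 0.983 for the opposite one.

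From the deposited intensity, control spots and outlier spots (97 in 5/6Nx, 105 in sham) were left out, the log2 75th percentile of each array was subtracted from its log2 values, and replicate spots were averaged. Each gene was represented by its brightest probe among those well above background on either array, and was measured when that probe was so on both. Coordinates of probes come from the scanner files (mm9), and promoters are from RefSeq (GRCm38.p6). Members were those whose gene name in the scanner files equals 1 of the 37 names. All 37 are named, with the members of each related list that were at least 2-fold apart or otherwise the 2 highest and 2 lowest, and the highest or lowest member of a marker list. The 37 members, their roles, 6 lists of related genes and 13 marker lists were chosen with earlier results of these data known. With 1 array in each group there is no p-value.

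Alternatives tried were scaling to the median or to spike-in controls, quantile normalization, a lowess trend (span 0.3), normexp background correction (limma 3.58.1 in R 4.3.3, offset 50), no background subtraction, the authors' table, the mean over probes, keeping outlier spots, no filter or a stricter one on dim probes, other fold sizes, and the probe nearest either transcript end. The calculation was run in Python 3.11.15 and tested on simulated data.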

Additional observations from a re-analysis of the deposited data

How the results depend on the processing

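No paired analysis was possible because there is 1 array in each group. Of 464 member values under 13 alternatives, 403 stayed within 0.201 log2, the median SD of differences between probes of a gene, 60 moved further and 1 reversed. Many of the 403 could not move, so that count does not measure stability. With no filter on dim probes (37 values) or the stricter one (20), the values equal the main ones. The 28 members on 1 probe are fixed under the mean over probes and under either probe end. Scaling to the median shifts all genes alike by less than 0.201, and the authors' table nearly repeats quantile normalization. Of the 60, 37 came from spike-in scaling, which shifts all genes alike, and 23 from the other 12 alternatives, and 26 of 37 members kept their sign in all. The reversal was Fosl2, at 1.02 with the probe nearest the 5′ end, which made 2 members higher. The probe nearest the 3′ end made 5 lower. Both probe choices were added after seeing the data. Nr4a2 stayed past 2-fold in every alternative, between -1.58 and -1.23. With spike-in scaling the median of all genes was -0.24, with 706 higher and 1677 lower. The medians were then -0.39 for all members, -0.33 for transcription factors, -0.66 for effectors, -0.26 for MAP kinase phosphatases, -0.33 for other early regulators, -0.38 for other activity-regulated genes, -0.20 for upstream signalling, -0.34 for other MAP kinase phosphatases, -0.66 for ERK feedback, -0.17 for family relatives and 0.42 for glucocorticoid-regulated genes. Because this scaling shifts every gene by the same amount, these equal the main values relative to the median of all genes by construction. Over all genes the main setting gave 1274 higher and 852 lower, normexp 687 and 497, no background subtraction 638 and 468, no filter 2604 and 1670, and genes above the median signal 322 and 306. That last filter left 0 members higher and a median of 0.39 for other early regulators. At 1.5-fold 4 members were higher, with 3560 genes higher and 2313 lower, and at 3-fold 0 members were lower, with 388 and 244. Of the genes called, 59.9% were higher in the main setting, 49.3% with quantile normalization, 42.4% with scaling to the median, 48% with the lowess trend removed, 29.6% with spike-in scaling and 49.5% in the authors' table. The cause was not tested.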
